A study of Mus musculus with 6 samples.

Results

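The 3 control libraries of the series, of 6 in all, were described here as a reference for cortical neurons in mid-gestation mouse embryos. The labels give cortices of mice with 2 normal copies of RP58 (genotype RP58+/+), the neurons are described as postmitotic, and the stage is E14.5. RP58, or Zbtb18, is a zinc finger repressor of transcription, and the remaining 3 libraries lack it and were not used. How the neurons were separated from dividing cells, the strain, and whether a library came from 1 embryo or several are not given in the sources used here, so the spread between libraries may be biological or technical. Each library was labelled as a TruSeq Stranded Total RNA library read on an Illumina HiSeq 4000. Members were chosen by genotype alone. No comparison between genotypes was made, and a single group of 3 libraries allows no test between conditions, so values are given per library, always in the order control 1, control 2 and control 3. Controls 2 and 3 were ranked together and apart from control 1, because the effective lengths in the deposited tables were of 2 kinds.

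Cortical projection neurons arise from radial glia and from intermediate progenitors in the ventricular and subventricular zones, leave the cell cycle and migrate outward to form the cortical plate. At this stage deep-layer neurons are settling and sending out axons while later ones are still being made. Growing axons and leading processes are built of tubulin and actin, are steered by receptors for slits, netrins, semaphorins and ephrins, and adhere through cadherins, immunoglobulin-family proteins and integrins. Basic helix-loop-helix (bHLH), T-box, SOX and zinc finger factors set the identity of each layer, and inhibitory interneurons reach the cortex from the ganglionic eminences and express DLX factors instead.

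Promoter sequences of 6 genes that the text turns on are shown from RefSeq (GRCm38.p6), as the 100 bases before the annotated start, 5′ to 3′ on the gene strand. They cover a ribosomal protein, a translation factor, a neuronal tubulin, 2 neuronal transcription factors and an axonal adhesion protein, and capitals mark TATAA, the core of the TATA box.
Rps9, chr7:3703941-3704040, plus strand: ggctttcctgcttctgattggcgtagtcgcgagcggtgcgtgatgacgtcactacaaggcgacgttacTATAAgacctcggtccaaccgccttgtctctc
Eef1a1, chr9:78481725-78481824, minus strand: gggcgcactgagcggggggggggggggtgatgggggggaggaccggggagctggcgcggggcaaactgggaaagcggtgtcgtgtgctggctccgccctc
Tubb3, chr8:123411453-123411552, plus strand: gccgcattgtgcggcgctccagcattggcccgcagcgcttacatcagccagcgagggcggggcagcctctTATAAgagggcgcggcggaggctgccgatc
Neurod6, chr6:55681264-55681363, minus strand: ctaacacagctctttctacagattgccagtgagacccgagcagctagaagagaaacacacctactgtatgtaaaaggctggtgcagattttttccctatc
Tbr1, chr2:61804353-61804452, plus strand: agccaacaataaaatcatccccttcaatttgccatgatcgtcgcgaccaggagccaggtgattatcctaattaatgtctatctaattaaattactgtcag
Cntn2, chr1:132542941-132543040, minus strand: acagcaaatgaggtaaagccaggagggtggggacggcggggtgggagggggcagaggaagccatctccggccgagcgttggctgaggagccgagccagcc
In Rps9 the motif began 32 bases before the start, and in Tubb3 it began 30 bases before it. TATAA on the gene strand was found within 60 bases of the start in 5.57% of 32851 promoters in the table, and in 7.24% on either strand. The share was 2.13% among 11149 promoters of detected protein-coding genes, defined below, and 11.8% among 6566 promoters of genes under the detection cut in all 3 libraries. Among the 100 highest genes it was 8.05% of 87 promoters in control 1 and 10.2% of 88 promoters in controls 2 and 3. The median ratio of observed to expected CpG over 250 bases was 0.740 for detected genes, 0.223 for genes under the cut, and 0.860 and 0.840 for the 100 highest genes of the respective rankings. The share with TATAA was thus above that of all detected genes at both ends of the range of expression, while the CpG ratio was lowest for genes under the cut. At the upper end the share rests on only 7 and 9 promoters, from rankings that shared 79 of their first 100 genes. A match is a string in a sequence window and says nothing of binding.

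The libraries held 34645505, 75892649 and 46457653 estimated counts over 97251 listed transcripts, of which 84637 matched a gene. The length minus the effective length of transcripts over 2000 bases had a median of 249, 139.2 and 136.8 bases. Levels of nuclear protein-coding genes correlated more closely between controls 2 and 3 (Spearman's rho 0.975 across 19437 genes) than between control 1 and control 2 (0.942) or control 3 (0.929). These correlations run across genes, which are not replicates. The labels describe 1 kit for all libraries and name nothing that sets control 1 apart. Levels are given as coding TPM, the deposited TPM summed per gene and rescaled so that the 20904 nuclear protein-coding genes sum to 1000000 in each library. The rescaling was needed because transcripts under 150 bases took 0%, 70.0% and 75.7% of the deposited TPM while taking 0%, 1.44% and 1.79% of the counts.

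Neuronal markers dominated the marker lists, and the defining markers of the labelled cell type were present in every library. All 15 pan-neuronal markers were detected, meaning at least 1 coding TPM in each of the 3 libraries, and their summed level was 7487, 7444 and 7295 coding TPM. Of all nuclear protein-coding genes 52.1% were detected, and a list with a share near that says little about its members. Tubb3, the neuronal beta-tubulin, was at 3799.5, 3243 and 3114 coding TPM, and Gap43, a growth cone protein, at 788, 452 and 392. Rbfox3, the NeuN antigen of maturing neurons, was at 59.3, 42.3 and 47.8 coding TPM. Neurofilament genes were low, with Nefm at 35.03, 23.04 and 19.9 and Nefl at 6.14, 12.1 and 7.46. All 12 markers of glutamatergic cortical neurons were detected, with sums of 3965, 6130 and 6555 coding TPM. The vesicular glutamate transporters were among the lower of these, Slc17a7 at 98.1, 111 and 103 and Slc17a6 at 12.7, 15.6 and 15.3 coding TPM.

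Markers of dividing cells were present at low levels beside those of neurons. The summed level of 14 radial glia markers came to 6.29%, 4.84% and 5.02% of the pan-neuronal sum. Most of that came from Vim, an intermediate filament gene, at 232, 126 and 129.9 coding TPM, Glul, glutamine synthetase, at 82.8, 104 and 104, and Fabp7 at 123, 79.6 and 76.4. In this list 8 of the 14 genes were detected, beside 52.1% of all nuclear protein-coding genes. Pax6 was at 7.37, 6.76 and 6.18 coding TPM, Prom1 at 6.35, 7.26 and 7.52 and Slc1a3 at 5.87, 20.8 and 22.6. Among those not detected, the stem cell factor Sox2 stood near the cut at 0.699, 1.01 and 1.16. Hes1, a Notch target that was also not detected, was at 0.298, 0.756 and 1.01. Intermediate progenitor markers summed to 4.25%, 3.53% and 4.07% of the pan-neuronal level, with Insm1 at 90.7, 118 and 148, Sstr2 at 91.2, 36.6 and 42.6 and Gadd45g at 31.8, 45.7 and 42.3. Sstr2 was highest in control 1 and Insm1 in both others. Eomes (Tbr2), the defining factor of these progenitors, was at 27.4, 11.1 and 11.02 coding TPM. The 15 proliferation markers summed to 2.19%, 1.95% and 1.99%, of which Pcna alone made up 74.98%, 61.2% and 63.5%. Mki67 was at 0.407, 1.11 and 1.17 and Ccnb1 at 2.06, 1.499 and 2.26 coding TPM. In bulk RNA, a few progenitors with full expression and many neurons with residual transcripts cannot be told apart.

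Markers of Cajal-Retzius cells, the reelin-making neurons of the marginal zone, were mostly detected, and those of interneurons mostly not. The 9 Cajal-Retzius markers summed to 1.76%, 3.38% and 3% of the pan-neuronal level, and 7 of the 9 were detected. Reln alone made up 72.4%, 72.3% and 70.4% of that sum. It was at 95.6, 182 and 154 coding TPM and Trp73 at 4.72, 7.06 and 8.15. Of 15 interneuron markers only Calb2, which also marks Cajal-Retzius cells, passed the cut, at 6.46, 9.79 and 5.86 coding TPM. The GABA-synthesising enzyme genes Gad1 and Gad2 stood at 0.0189, 0.271 and 0.218 and at 0.0205, 0.405 and 0.524 coding TPM, and Dlx2 at 0.0467, 0.0692 and 0.0287. Some markers exceeded 1 coding TPM in part of the libraries. Dlx6 did so in controls 2 and 3, at 0.350, 3.19 and 2.52. Npy did so in controls 1 and 3, at 1.64, 0.0946 and 2.81, and Maf in control 3 alone, at 0.0873, 0.879 and 1.14. The summed level of interneuron markers was 0.124%, 0.226% and 0.207% of the pan-neuronal sum.

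Markers of cells outside the neural lineage were low beside those of neurons, with a few genes above the cut. None of 11 microglia markers and none of 11 mural and meningeal markers was detected, with sums of 2.09, 2.16 and 4.76 coding TPM and of 0.952, 2.30 and 3.86 coding TPM. Among endothelial markers, Ramp2 passed the cut, at 18.1, 4.06 and 2.02 coding TPM, while the defining junction genes Cldn5 and Cdh5 were at 0.0446, 0.0317 and 0.0525 and at 0, 0.021 and 0.0697. Of 9 erythroid markers 3 were detected, and the list summed to 40.5, 26.1 and 32.1 coding TPM. Hba-a1, an alpha-globin gene, led it in control 1 and was at 18.04, 7.54 and 7.397, and Alas2, the erythroid enzyme of haem synthesis, led it in both others at 0.261, 11.9 and 13.1. In control 1 Ramp2 and Hba-a1 stood close to the median detected gene, at 22.2 coding TPM. Endothelial, mural, microglial and erythroid markers together made 0.836%, 0.507% and 0.639% of the pan-neuronal sum. Of the oligodendrocyte lineage list 3 of 8 genes were detected. Mbp, its highest, was at 12.3, 23.04 and 16.01 coding TPM while the lineage factors Olig2 and Olig1 were at 0.0712, 0.0703 and 0.0584 and at 0, 0.0199 and 0, and Sox10 had 0 counts in all 3 libraries. The striatal list had 4 of 10 genes detected, beside 52.1% of all nuclear protein-coding genes. Meis2 and Foxp1, which cortical neurons also express, were at 240.5, 273 and 292 and at 26.5, 136 and 131 coding TPM. Ppp1r1b (DARPP-32) and Drd1, a dopamine receptor, were detected too, at 115, 64.7 and 68.8 and at 3.04, 16.4 and 14.6. The other 6 did not pass the cut, among them Isl1 at 0.0229, 0.0765 and 0.0282 and Drd2 at 0, 0 and 0.0557. The part that these other cells had in the levels below was not tested.

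**Figure D1:**
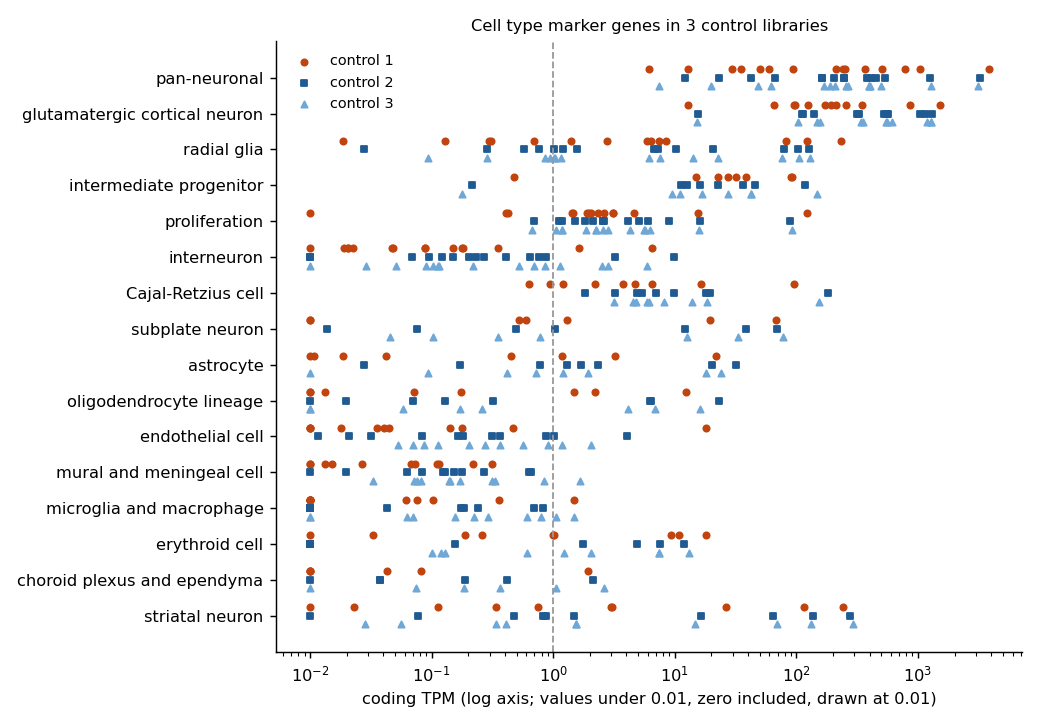
Level of each marker gene (points, coding TPM on a log axis, values under 0.01 drawn at 0.01) by marker list (rows) in control 1, control 2 and control 3; the dashed line is the detection cut of 1 coding TPM. The pan-neuronal and glutamatergic rows lie wholly right of the cut, and the mural and microglial rows lie almost wholly left of it.

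Protein-coding messages made up most gene-assigned counts, and the libraries differed in their noncoding RNA. Nuclear protein-coding genes took 93.4%, 74.1% and 74.9% of the counts. Mitochondrial ribosomal RNA took 0.133%, 17.3% and 17.1%, so that controls 2 and 3 held it at a level far above control 1. Mitochondrial messenger RNA went the other way, at 5.25%, 1.80% and 1.76%. Small structured RNA, such as 7SK and signal recognition particle RNA, took 0.00185%, 4.17% and 3.55%, and long noncoding RNA 0.379%, 1.99% and 2.15%. Ribosomal protein genes, 76 in number, took 3.90%, 1.96% and 1.85% of counts. In each of these classes controls 2 and 3 lay close together and control 1 apart from both.

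Among single noncoding genes, the mitochondrial ribosomal, 7SK and Malat1 RNAs showed the same split, and pseudogenes did not all do so. The mitochondrial large ribosomal RNA, mt-Rnr2, had 29748 counts in control 1 against 1.08e+07 in control 2 and 6.36e+06 in control 3. Rn7sk, the RNA that holds the elongation factor P-TEFb inactive, had 153, 1.11e+06 and 590604 counts. Malat1, a nuclear-retained long noncoding RNA, had 2994, 704227 and 462459 counts. Rn7s1 and its copy Rn7s2 encode signal recognition particle RNA and received identical counts in controls 2 and 3, 676289 and 335319 each, as happens when reads fit both copies, so their separate levels are uncertain. The noncoding genes with most counts in control 1 were processed pseudogenes of ribosomal proteins, Rpsa-ps10, Gm15500, Rpl3-ps1 and Rps2-ps13, beside mt-Rnr2. Rpsa-ps10 had 35480, 17842 and 69.9 counts and Rpl3-ps1 had 21139, 15864 and 28.3, so that control 3 stood apart from both others. Rps2-ps13 had 14379, 11.1 and 25.9 counts and was high in control 1 alone, while Gm15500 had 29984, 34685 and 19529. Such copies share nearly all of their sequence with the parent gene, and their counts are uncertain.

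Messages without a poly(A) tail and unspliced transcripts were also unevenly spread. The 62 replication-dependent histone genes, whose messages end in a stem-loop, took 0.0245%, 0.107% and 0.101% of counts. Hist1h4h was at 0.521, 827 and 757 coding TPM, while Hist3h2ba was at 229, 308 and 321. Transcripts annotated as retaining an intron took 1.37%, 3.23% and 3.41% of the counts of protein-coding genes. For the histone genes and the retained introns alike, control 1 lay under both of the others. Near-identical histone copies make single-gene values uncertain.

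**Figure D2:**
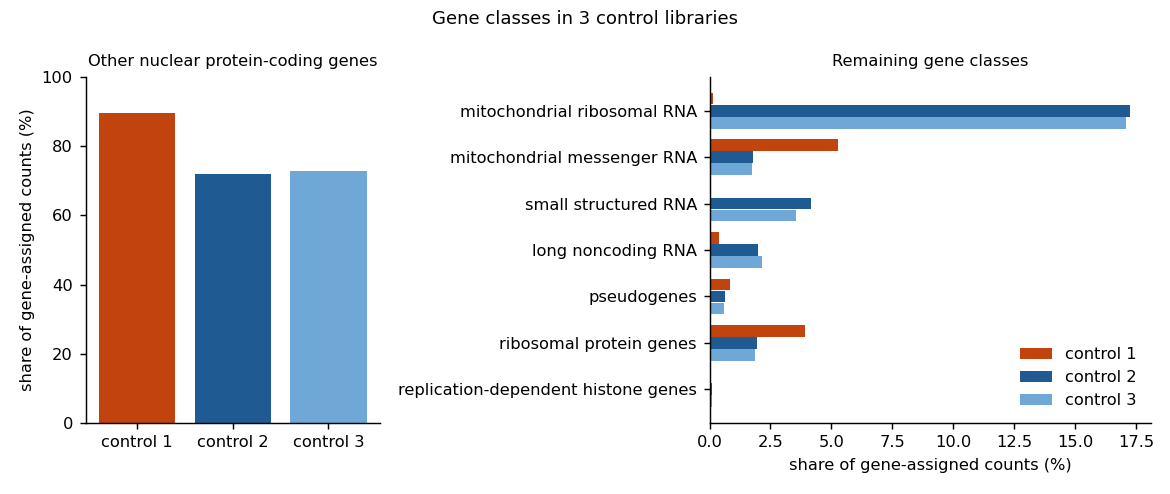
Share of gene-assigned estimated counts (percent) taken by other nuclear protein-coding genes (left) and by the remaining gene classes (right) in control 1, control 2 and control 3. Mitochondrial ribosomal RNA took 0.133% of counts in control 1 and 17.3% and 17.1% in controls 2 and 3.

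Genes of the cytoskeleton and of protein synthesis headed the ranking in every library. Tuba1a (ENSMUSG00000072235), the alpha-tubulin of growing axons, was first in all 3 at 30058, 20362 and 19470.1 coding TPM. Tmsb4x, which sequesters actin monomers, was at 16829.9, 8542 and 8071, and Eef1a1, the translation elongation factor that brings aminoacyl-tRNA to the ribosome, at 15686, 11201 and 10507. Tmsb10, a second thymosin, was at 6931, 6707 and 6321. These 4 genes were among the first 6 in both rankings. Their levels in control 1 exceeded those in controls 2 and 3, narrowly for Tmsb10 and by most for Tmsb4x, whose log2 difference was 1.02.

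Tubulins and tubulin-binding proteins filled several of the next places. Tubb2b was at 7464, 4597 and 4591 coding TPM, Tubb5 at 4972, 4458 and 4248, and Stmn1 (stathmin), which destabilises microtubules, at 6329, 3009.8 and 2837. Tuba1a held 61.2%, 58.3% and 57.9% of the summed level of 18 tubulin genes, of which 15 were detected. Reads common to alpha-tubulin copies were divided by kallisto, so the split among them is less certain than their sum. Among microtubule-associated proteins, Dpysl3 was at 912, 1486 and 1453 and Crmp1, a collapsin response mediator, at 1423, 1061 and 1046. Map2, which marks dendrites, was at 509.6, 1257 and 1269 coding TPM. Map2 was higher in controls 2 and 3, and Crmp1 was higher in control 1.

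The 2 cytoplasmic actins changed order between the rankings. Actg1 was at 6939, 5435 and 5187 coding TPM. Actb was at 2643, 8039 and 7759, rank 42 in control 1 and rank 5 in controls 2 and 3. In control 1 Actg1 stood above Actb, and in both other libraries Actb stood above Actg1. The messages encode nearly the same protein but differ in their untranslated ends.

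Lars2, the mitochondrial leucyl-tRNA synthetase, showed the widest gap among the leading genes. It was at 802, 10837 and 12558 coding TPM, rank 186 in control 1 and rank 2 in controls 2 and 3. Counts on it were 56083, 1.004e+06 and 700611. The transcript Lars2-201 shared 26 of its 3864 windows of 31 bases with AA474408, which was at 204, 3065 and 4037 coding TPM, and none with mt-Rnr1, mt-Rnr2, Malat1 or Rn7sk. Nuclear ribosomal RNA was not compared, so reads from it on Lars2 were not tested. Both Lars2 and AA474408 were low in control 1 and high in controls 2 and 3, and what the shared windows contributed was not tested.

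Ribosomal proteins made up 50 of the 100 highest genes in control 1 and 42 in controls 2 and 3. Rpl41 was at 4336, 3389 and 3412 coding TPM, Rps29 at 3338, 2490.0 and 2467 and Rps9 at 4566, 2079 and 2007. All 46 large-subunit and all 30 small-subunit genes were detected. Other leading genes were Ftl1, the ferritin light chain, at 3448, 3727 and 3458, Ptma, prothymosin alpha, at 6706, 4075 and 3972, and Nnat, an imprinted gene of developing brain, at 4326, 2899 and 2653. H3f3a, the replication-independent histone H3.3, was at 4282, 3081 and 2999.8. Ptma, Nnat and H3f3a were higher in control 1 than in either other library, whereas Ftl1 had its highest value in control 2.

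Chaperones, glycolytic enzymes and splicing regulators were detected without exception. Hspa8, a constitutive chaperone, was at 4017, 1849 and 2397 coding TPM and Hsp90ab1 at 3079, 2401 and 2276. All 24 chaperone genes, all 28 translation factors, all 17 glycolytic enzymes and all 41 splicing regulators listed were detected. Gapdh was at 2222, 1289 and 1266 and Hnrnpa1 at 3572, 2360.2 and 2343. The synaptic vesicle and release list had 27 of 31 genes detected but summed to only 2164, 2032 and 2080 coding TPM, led by Rab3a, a vesicle GTPase, at 560.0, 411 and 409. Snap25, part of the fusion complex, was at 213, 204 and 208, with a mean of 209 ± 4.42 coding TPM (SD, n = 3).

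The total was spread over more genes in controls 2 and 3. The upper 50% of the level lay in 322, 712 and 753 genes, and the first 100 genes held 32.8%, 24.4% and 23.8% of it. The rankings shared 13 of their first 20 genes, 79 of 100 and 381 of 500. Controls 2 and 3, ranked singly, shared 18, 95 and 483. Detected nuclear protein-coding genes numbered 10882 of 20904, or 52.1%.

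**Figure D3:**
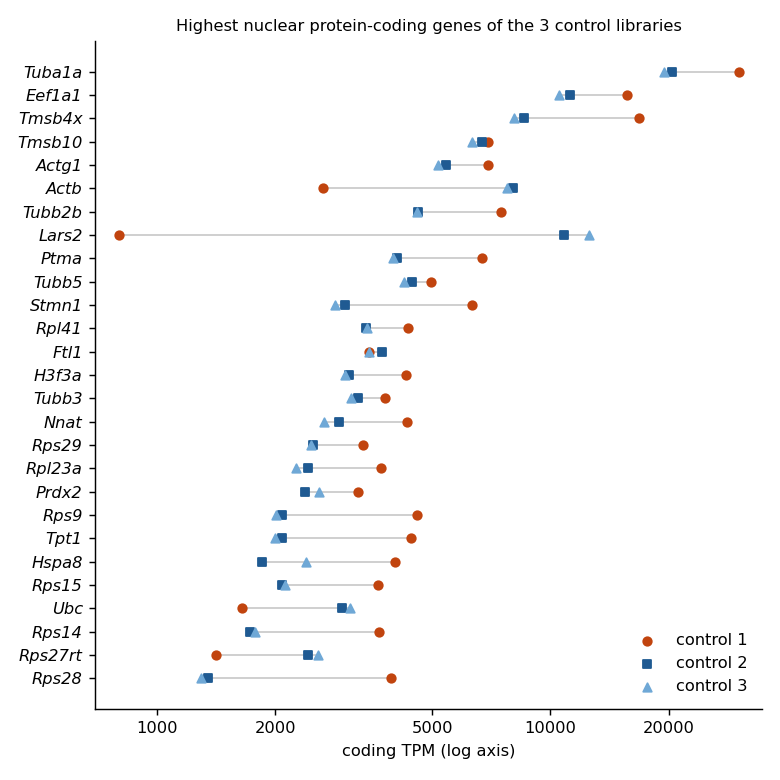
Level (coding TPM, log axis) of the 27 genes that were among the 20 highest in control 1 or in controls 2 and 3, by library. Tuba1a lies farthest right in all 3 libraries, and Lars2 and Actb show control 1 far left of the others.

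The highest transcription factor was Ybx1 in control 1 and Sox11 in controls 2 and 3, and Neurod6 was near the top in both orders. Of 519 matched factors 317 (61.1%) were detected, against 52.1% of all nuclear protein-coding genes. Their summed level was 1.98%, 2.98% and 3.13% of the coding total. The median detected factor stood at 14.2, 26.8 and 28.2 coding TPM, under the medians of 22.2, 36.3 and 37.3 for all detected genes. Among the first 1000 genes there were 22 factors in control 1 and 31 in controls 2 and 3, with 19 in both.

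Among bHLH factors, those of the neuronal lineage were prominent. Neurod6 (ENSMUSG00000037984), a differentiation factor of pyramidal neurons, was at 1528, 1302 and 1279 coding TPM, with a mean of 1369 ± 137 (SD, n = 3). Neurod2, which acts in the same lineage, was at 349, 557 and 606, and Bhlhe22 at 210.1, 316 and 338. The ubiquitous partner Tcf4 was at 220.1, 629 and 689.9, and Id2, which binds such partners and blocks them, at 729.9, 467 and 569. Neurod2 and Tcf4 were lower in control 1, and Id2 was higher in it. The early proneural factor Neurog2 was at 22.8, 22.7 and 27.2, and its spread across the 3 libraries was small beside its level. In this list of 63 factors 34 were detected, beside 52.1% of all nuclear protein-coding genes. Neurod6 held 31.3%, 25.4% and 23.7% of the list's summed level.

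Factors of deep-layer identity were expressed in every library. Tbr1, a T-box factor of layer 6 and subplate neurons, was at 257, 563 and 558 coding TPM. Fezf2, which specifies subcerebral projection neurons, was at 193, 327 and 354, and Bcl11b (Ctip2), a zinc finger factor of the same neurons, at 125, 521 and 544. Tbr1, Fezf2 and Bcl11b were each lower in control 1 than in either other library, and Tbr1 was the highest of them in every library. Bcl11a was at 287, 391 and 431, and Zfp462 at 64.8, 469.9 and 506. Tbr1 and Eomes were the only 2 of 7 T-box factors detected, and Tbr1 held 90.3%, 97.9% and 97.8% of the list's level.

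Zbtb18 (ENSMUSG00000063659), the gene deleted in the mutant mice of the series, was itself one of the most abundant factors. It was at 862, 1135 and 1267 coding TPM, rank 173 among protein-coding genes in control 1 and rank 90 in controls 2 and 3. The list of 47 ZBTB factors also held Bach2, which is outside that zinc finger family. Of the 47, 42 were detected, and Zbtb18 held 57.3%, 47.1% and 48.7% of their level. Bach2 followed in controls 2 and 3, the list's values for it being 50.6, 224 and 218. Zbtb12 was at 105, 53.003 and 57.9, and Zbtb12 stood above Bach2 in control 1 only.

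SOX and nuclear factor I genes changed order between the rankings. Sox11, which drives neuronal differentiation, was at 134, 1704 and 1928 coding TPM. Sox4, a close relative, was at 271, 699.8 and 866, and Sox5, a repressor active in deep-layer neurons, at 170.2, 1029.5 and 1185. Control 1 ranked them Sox4, Sox5 and Sox11, and controls 2 and 3 ranked them Sox11, Sox5 and Sox4. Sox12, the third member of the Sox4 and Sox11 group, was at 148, 131 and 143 and was close in all 3 libraries, with a mean of 141 ± 8.77 (SD, n = 3). Nfib was at 359, 1446 and 1476, Nfix at 423, 681 and 769 and Nfia at 90.1, 306 and 319. Nfix led this family in control 1 and Nfib led it in both others, and all 4 members were detected.

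Among homeodomain factors and nuclear receptors, Zeb2 and Thra had the highest mean levels of their lists. Zeb2, a repressor with a homeodomain, was at 102, 832 and 799 coding TPM, far lower in control 1. The cortical factors Lhx2 and Emx1 were at 164, 199 and 193 and at 95.9, 139 and 148. Thra, the alpha thyroid hormone receptor, was at 1402, 1072 and 1100.1 and held 79.2%, 64.9% and 64.1% of the level of 41 nuclear receptors, of which 20 were detected. Nr2f1 (COUP-TFI), which patterns cortical areas, was at 78.7, 97.9 and 109.6. Of 67 homeodomain factors 34 were detected and of 25 forkhead factors 15, beside 52.1% of all nuclear protein-coding genes.

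Broadly expressed factors were also among the highest. Ybx1, a cold-shock domain protein that also binds RNA, was at 1873, 1099 and 1055 coding TPM, and Hmgb1, a chromatin protein, at 1005, 725 and 516. Usf1 was at 415, 338 and 372, Atf4, a factor of the stress response, at 106, 117 and 107, and Elf2, the leading ETS factor, at 37.8, 67.8 and 68.1. Ybx1 and Hmgb1 were higher in control 1 than in either other library, while Atf4 had a mean of 110.1 ± 5.95 coding TPM (SD, n = 3). Of 38 bZIP factors 29 were detected, and of 18 ETS factors 10, beside 52.1% of all nuclear protein-coding genes.

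Receptors were led in controls 2 and 3 by Cnr1 and the guidance receptor Plxna2 and in control 1 by Ifngr2 and Gabbr1. Of 362 matched receptor genes 159 (43.9%) were detected, beside 52.1% of all nuclear protein-coding genes, and they summed to 0.457%, 1.03% and 1.08% of the coding total. The median detected receptor stood at 16.0, 38.4 and 39.4 coding TPM, under the median of all detected genes in control 1 and slightly above it in both others. Among the first 1000 genes there were 2 receptors in control 1 and 15 in controls 2 and 3. The latter included both of the former.

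Among the 13 receptor lists, that of axon guidance receptors had the highest share of genes detected, 26 of 31. Plxna2, a semaphorin receptor, was at 84.1, 361 and 413 coding TPM, and Ptprs, a receptor phosphatase for proteoglycans, at 91.8, 375 and 379. Robo1, a slit receptor, was at 63.6, 219 and 210.1, and Neo1, a receptor for netrins and repulsive guidance molecules, at 84.8, 189 and 179.7. All 4 were lower in control 1 than in either other library. Rtn4rl2, a Nogo receptor family gene with a transcript of 1225 bases, led this list in control 1 and was close in all 3 libraries at 110.1, 109 and 105. Dcc, the netrin receptor of commissural axons, was at 23.5, 288 and 263 coding TPM, and Plxna4 at 0, 19.7 and 19.4. Plxna4 had 0 counts in control 1, where 3 counts would have given 0.0142 coding TPM, taken per library. By counting error alone, its level there was at least 1367-fold lower than in control 3. That bound leaves out the spread between libraries and any forms that matched no gene. Names of Dcc and Rtn4rl2 were added after their values were seen.

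Eph receptors, which bind ephrins on neighbouring cells, had 8 of 14 genes detected, beside 52.1% of all nuclear protein-coding genes. Epha5 was at 63.4, 273 and 279.9 coding TPM, Epha3 at 60.8, 196 and 195 and Epha4 at 48.2, 162 and 139. Epha5 led in all 3 libraries, with 21.7%, 31.3% and 32.0% of the list's level. Each of these receptors was lower in control 1. Among other receptor tyrosine kinases, 17 of 44 were detected. Ddr1, a collagen receptor, was at 114, 148 and 140.3, Kit at 47.9, 217 and 211 and Fgfr1 at 80.4, 143 and 157. Ddr1 led in control 1 and Kit in both others.

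Of 26 glutamate receptor genes 11 were detected, and of 23 GABA and glycine receptor genes 11, beside 52.1% of all nuclear protein-coding genes. Gria2, the AMPA receptor subunit that limits calcium entry, was at 25.7, 139 and 153 coding TPM, and Grik5, a kainate receptor subunit, at 65.1, 72.02 and 80.7. Grik5 led the glutamate list in control 1 and Gria2 led it in both others. Grin2b, the NMDA receptor subunit typical of immature neurons, was at 1.47, 88.3 and 96.3, with counts of 189, 8143 and 5225. Gabbr1, a subunit of the metabotropic GABA receptor, was at 187, 210.1 and 232 and held 59.5%, 47.7% and 49.8% of the level of GABA and glycine receptors. Glra2, the fetal glycine receptor subunit, was at 26.5, 45.5 and 37.1.

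Cnr1, the cannabinoid receptor, headed the receptors in controls 2 and 3, while Ifngr2 and Gabbr1 stood above it in control 1. It was at 147, 608 and 555 coding TPM and held 82.7%, 89.0% and 87.5% of the level of 41 monoamine, purine and cannabinoid receptors, of which 5 were detected. Cnr1 was lower in control 1 than in either other library, with a log2 difference of -1.97. Of 17 acetylcholine receptor genes 4 were detected, with the nicotinic subunits Chrnb2 at 51.9, 64.2 and 62.9 and Chrna7 at 15.7, 69.99 and 84.02. Of 52 receptors for peptides, lipids and chemokines 17 passed the cut, with Adcyap1r1, the PACAP receptor, at 37.96, 69.9 and 72.8. The orphan receptor Gpr85 was at 83.1, 115 and 123 and led its list of 34 in each ranking.

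Receptors for reelin and for secreted morphogens were present at intermediate levels. Lrp8, 1 of the 2 reelin receptors, was at 53.04, 126 and 144 coding TPM, and Lrp1 at 70.8, 143 and 159. Vldlr, the second reelin receptor, named after its values were seen, was at 14.6, 67.3 and 74.8. Both reelin receptors were lower in control 1, and Lrp8 stood above Vldlr in every library. Fzd3, a planar polarity receptor for axon tracts, was at 9.79, 132 and 129.9, and Fzd1 at 40.3, 65.7 and 74.7. Notch1 was at 0.31, 0.287 and 0.286, under the cut in every library. Of 20 Notch, Wnt and hedgehog receptors 9 were detected, beside 52.1% of all nuclear protein-coding genes. Tgfbr1 was at 50.5, 138 and 139, and the type II BMP receptor Bmpr2 at 14.4, 104 and 108. Ifngr2, a subunit of the interferon gamma receptor, was among the receptors close in all 3 libraries, at 209, 224 and 245 with a mean of 226 ± 18.3 (SD, n = 3).

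Adhesion genes were detected in 147 of 231 cases (63.6%), beside 52.1% of all nuclear protein-coding genes. They summed to 0.755%, 1.28% and 1.35% of the coding total, and the median detected gene stood at 22.1, 45.4 and 48.5 coding TPM, close to that of all detected genes in control 1 and above it in both others. Ctnnb1 (beta-catenin, ENSMUSG00000006932), which links cadherins to actin and carries Wnt signals, was highest at 763, 804 and 819 coding TPM, with a mean of 796 ± 29.2 (SD, n = 3). Cntn2 (TAG-1), a contactin of corticofugal axons, was at 631, 697 and 814. These genes were the first pair in every library.

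Cdh2, N-cadherin, had the highest mean level of the classical cadherins, at 236, 288 and 319.7 coding TPM. Cdh13, a cadherin without a cytoplasmic tail, was at 138, 310.2 and 309.7, and Cdh11 at 27.7, 77.5 and 84.5. Cdh2 led in control 1, and Cdh13 was close to it in both others. Of 19 classical cadherins 10 were detected, beside 52.1% of all nuclear protein-coding genes. Fat4, a giant protocadherin of planar polarity, was at 22.1, 327 and 320.0, and its ligand Dchs1 at 35.9, 160.2 and 164. Clstn1, a calsyntenin, was at 188, 207 and 215. Fat4 and Dchs1 were far lower in control 1, whereas Clstn1 was close in all 3.

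Immunoglobulin-family adhesion genes had 37 of 50 detected. L1cam, an axonal adhesion protein, was at 196, 326 and 345 coding TPM, Alcam at 73.7, 307 and 359, and Bsg (basigin), a partner of lactate transporters, at 281, 275 and 281. Cadm4 was at 324, 221 and 254. Bsg had the closest values of these, with a mean of 279 ± 3.49 (SD, n = 3), Cadm4 was highest in control 1, and L1cam and Alcam were lowest in it. Ncam1, 1 of the pan-neuronal markers, was at 12.9, 162 and 190.1. Gpc2, a glypican of growing axons, was at 346, 311 and 315, and the alpha-catenin Ctnna2 at 163, 297 and 311.

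Of 24 integrin genes 6 were detected, beside 52.1% of all nuclear protein-coding genes, and 13 were under the cut in all 3 libraries. Some others passed it in controls 2 and 3 but not in control 1. Itgb1, the common beta subunit, was at 63.9, 89.6 and 87.3 coding TPM and held 62.5%, 40.8% and 41.6% of the list. Its laminin-binding partner Itga6 was at 27.9, 88.8 and 69.9. Itgav, a further alpha subunit, stood far lower at 1.698, 6.69 and 7.49. Control 1 was lowest for each of these 3 genes.

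Synapse-organising and teneurin genes were already present. Tenm4, a teneurin, was at 40.1, 373 and 423 coding TPM, and Adgrl1, a latrophilin that binds teneurins, at 123, 281 and 292. Nrxn2, a presynaptic neurexin, was at 81.1, 126 and 138 and Nlgn2, a neuroligin of inhibitory synapses, at 86.2, 105 and 112. Nlgn2 was slightly above Nrxn2 in control 1 and below it in both others. Of 33 leucine-rich repeat adhesion genes 29 were detected, led in every library by Lrrc4b at 77.9, 312 and 327. Lrfn5 was at 56.7, 214 and 175 and Flrt2 at 35.9, 168 and 169, with Lrfn5 above Flrt2 throughout. Ephrins, the ligands of Eph receptors, had 7 of 8 genes detected and summed to 434, 412 and 423 coding TPM. Efnb2 was at 179.8, 124 and 127 and Efnb1 at 82.6, 95.6 and 109 coding TPM.

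**Figure D4:**
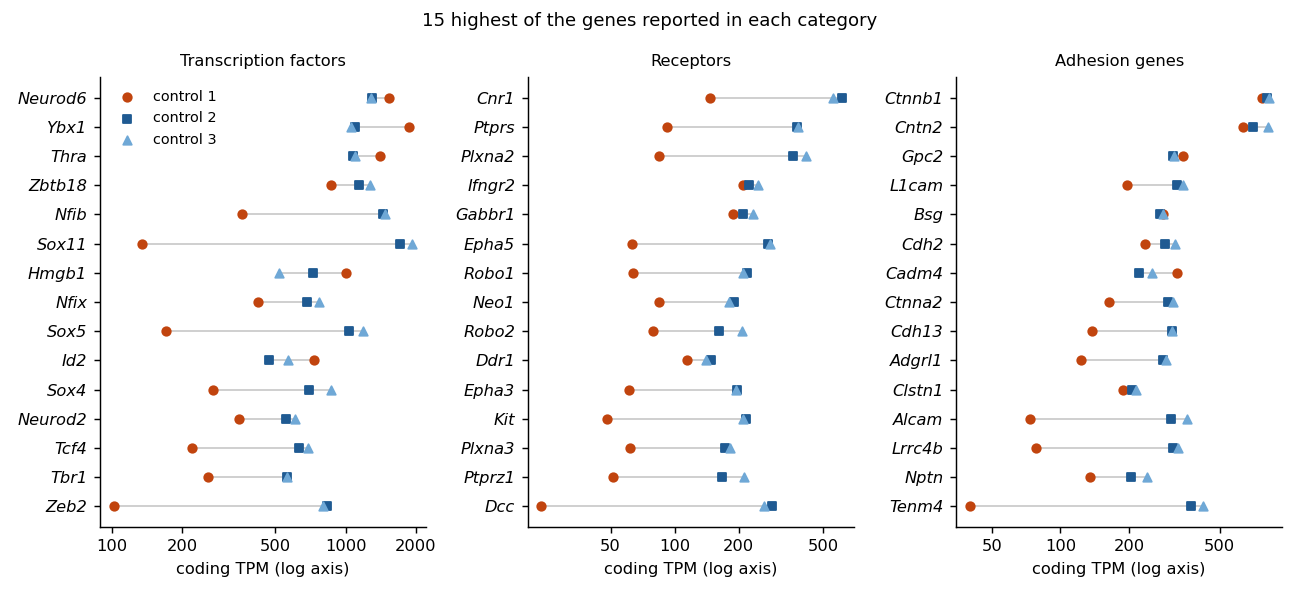
Level (coding TPM, log axis) of the 15 highest transcription factors, receptors and adhesion genes among those reported, by library, ordered by their mean on the log scale. Control 1 lies left of the other libraries for most receptors, and close to them for Neurod6, Ifngr2, Ctnnb1 and Bsg.

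The difference between the rankings followed transcript length. Over 10882 detected genes the log2 difference of control 1 minus controls 2 and 3, on log2(coding TPM + 1), had a median of -0.46. For 747 genes with transcripts under 1000 bases, by the count-weighted mean, the median was 0.29, and for 2538 genes of 1000 to under 2000 bases it was 0.03. For 4724 genes of 2000 to under 4000 bases it was -0.45, for 2555 genes of 4000 to under 8000 bases -1.09, and for 318 genes of 8000 bases and over -2.03. Spearman's rho between length and difference was -0.565 across these genes. The median length was 2793 bases for all detected genes, 3706 for detected transcription factors, 4067 for receptors and 4209 for adhesion genes, and the median differences were -0.69, -0.91 and -1.03 for these categories. Order among genes of unlike length therefore depended on the library, and the part of length in any single gene's difference was not tested.

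**Figure D5:**
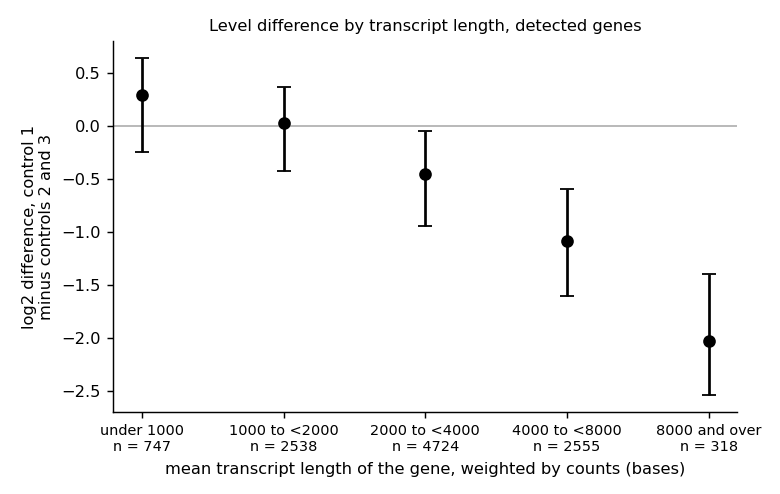
Median log2 difference of control 1 minus controls 2 and 3 (points, with lines from the lower to the upper quartile) for detected genes in 5 bins of transcript length. The median passes from 0.29 under 1000 bases to -2.03 at 8000 bases and over.

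Several members departed from the others. Among 579 transcription factor, receptor and adhesion genes with at least 5 coding TPM in either set, Fat3, a giant cadherin, lay highest in control 1, at 6.09, 0.00671 and 0.00239 coding TPM with counts of 2134, 3.04 and 0.652. Its transcript of 18456 bases put it against the run of long genes. Thy1 was at 12.7, 2.45 and 2.69, and Nhlh1, a factor of newly born neurons, at 62.1, 28.8 and 24.9. Eomes and Sstr2, given above, were the others of the 5 highest. The 5 genes lowest in control 1 were Grin2b and Plxna4, given above, Sp3 at 4.51, 153 and 146, Nfe2l3 at 0.821, 44.6 and 51.6 and Styk1 at 4.61, 128 and 143. Styk1, with a transcript of 691 bases, lay against the run of short genes. In all 10 genes controls 2 and 3 lay on the same side of control 1. The choice by largest difference nearly ensures this, so it is no sign of agreement between them.

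Transcript choice was described for 34 of 35 genes with splice forms known from development, those with at least 200 counts in each library. In 3 of them, App, Ptbp2 and Robo1, a single transcript matched, so its share was fixed at 100%. Of the other 31 genes, 22 had the same leading transcript in all 3 libraries, and in 5 it held at least 90% in each. Mapt, the tau gene, was nearly all Mapt-204, with 99.9, 97.4 and 97.4% of the gene's counts. Zbtb18 was mostly Zbtb18-202, with 98.1, 88.7 and 88.98%. Dab1, the adaptor of the reelin receptors, was mostly Dab1-203, with 98.1, 91.04 and 91.6%. Dcx, a microtubule protein of migrating neurons, was led by Dcx-201 throughout, but with shares of 89.7, 54.7 and 52.8%.

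Other genes changed their leading transcript between the rankings. For Ptprs, the form Ptprs-202 of 29 exons held 91.5, 11.9 and 12.4%, and Ptprs-201 of 33 exons held 8.53, 79.1 and 78.4%. For Fgfr1, Fgfr1-203 held 57.5, 1.95 and 0.738% and Fgfr1-202 held 16.9, 58.8 and 56.8%. For Ntrk3, the receptor of neurotrophin 3, the form Ntrk3-202 of 14 exons held 69.3, 19.97 and 16.9%, and Ntrk3-201 of 17 exons held 27.1, 71.4 and 74.5%. In each of these 3 genes controls 2 and 3 lay within a few percentage points of each other and another form led in control 1. Controls 2 and 3 shared their leading form in 7 of the 9 genes that changed it. In the remaining pair each library had a leader of its own. For Grin1, an NMDA receptor subunit, Grin1-206 held 53.9, 15.7 and 1.51e-06%, Grin1-205 held 1.05e-08, 26.7 and 7.202% and Grin1-201 held 13.4, 23.5 and 37.8%. For Nrxn2, Nrxn2-202 held 42.1, 20.7 and 21.1%, Nrxn2-204 held 6.299, 31.8 and 25.9% and Nrxn2-205 held 8.19, 24.5 and 28.8%. Grin1 had 550, 1057 and 752 counts over 14 matched transcripts, and Nrxn2 had 3699, 8845 and 5707 over 15, so single shares are uncertain. The part of transcript length in these changes of leader was not tested. The shares are kallisto's estimates over the transcripts that matched the annotation, and forms that did not match are left out.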

How the data were processed

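RNA from 3 control libraries was quantified by the authors with kallisto, after FastQC, per the submitters' processing notes, which also name mm9 and give no versions. Per the file headers, each deposited table holds for every transcript its length, effective length in bases, estimated count (not normalized) and TPM (scaled by effective length and total). Mutant tables were not used. Transcripts were joined by identifier to GENCODE vM21, used for names and types only, and estimated counts and deposited TPM were summed per gene with Python 3.11.15, pandas 2.3.3 and numpy 2.4.6. The sums, the rescaling and the ranks were tested on simulated counts. No test was run, since there is 1 group. Symbols of 7 listed genes had no match.

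Named genes were the 20 highest of each ranking, up to 4 leaders of each list by mean log2(coding TPM + 1), all markers, the 5 largest differences in each direction, and listed splice forms; exceptions are stated, and 5 genes that the rule or lists held are not reported here. The libraries, lists and rules were chosen with earlier results of these data known. The motif TATAA, the promoters printed, the length bins, the 15 genes per plotted category, the Lars2 comparison and the sums relative to pan-neuronal markers were chosen after values were seen. RefSeq promoters matched 16031 of 20887 nuclear protein-coding symbols; RefSeq and GENCODE starts differed by 37 bases for Tubb3, 1 for Cntn2 and 0 for the other 4 printed. Depth was 34645505 to 75892649 counts per library, and precision beyond counting error is set by n = 3.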

Additional observations from a re-analysis of the deposited data

Results flagged for a closer look

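Signal lay on transcripts that matched no gene of the annotation and entered no level above. These 12614 transcripts took 7.02% of the estimated counts in control 1, 7.97% in control 2 and 8.54% in control 3. They took 8.31%, 70.6% and 76.5% of the deposited TPM. The largest share came from ENSMUST00000175336, a transcript of 82 bases with 0, 659211 and 502085 counts, whose deposited TPM was 486662 in control 2 and 531107 in control 3. The genes behind these transcripts were not identified, and the flagged shares are therefore values without a name.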

How the results depend on the processing

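For detected genes, shared ranks, class shares and marker sums, 89 of 96 alternative settings left the value within 1.5 times a count or within 1 SD of a share, and 7 moved it. Leaving out 1 of 3 libraries cannot shift a mean share or marker sum by 1 SD. Dropping the rescaling cannot change a marker sum relative to the pan-neuronal sum, because the scale cancels within a library. Those settings could not count as moved. The tally therefore says little of how far these values rest on any 1 library, or the marker sums on the rescaling. Of 11 settings added for promoter shares and the Lars2 windows, 6 left the value within its 95% interval and 5 moved it. By deposited TPM in place of counts, the mean share was 57.8% for nuclear protein-coding genes, 23% for small structured RNA and 6.94% for ribosomal protein genes. By CPM without length, the marker sums relative to the pan-neuronal sum were on average 3.41% for radial glia, 1.46% for proliferation, 8.05% for Cajal-Retzius cells and 0.274% for endothelial, mural, microglial and erythroid markers together. Leaving out each library in turn, detected genes numbered 10907 to 12370, transcription factors 317 to 355, receptors 159 to 199 and adhesion genes 147 to 167, and 76 to 80 of the first 100 genes were shared. The mean share of mitochondrial ribosomal RNA ranged from 8.60% to 17.2%, so that it rested on whether control 1 was among the libraries: without control 1 it was 17.2%. The mean share of small structured RNA ranged from 1.78% to 3.86% and that of long noncoding RNA from 1.18% to 2.07%. A window of 100 bases, tried after the sequences were seen, put TATAA in 7.48% of all promoters, 7.24% of those of protein-coding genes, 2.93% of those of detected genes, 14.7% of those under the cut, and 10.3% and 11.4% of the 100 highest. With windows of 21 bases, Lars2 shared 56 with AA474408. No paired analysis was possible because only the control group was described. Depth limits the low genes most: 3 counts in control 1 would have given 0.315 coding TPM for Hist1h1b, which had 0 counts there.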

Other observations

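Transcripts of the sex chromosomes differed between the libraries. Xist, the RNA of the inactive X chromosome, had 0 counts in control 1, 32530 in control 2 and 64.3 in control 3. The Y-linked gene Kdm5d had 796, 0 and 1762 counts, Ddx3y had 557, 28.3 and 968, Eif2s3y had 452, 12.2 and 749, and Uty had 254, 63.1 and 1675. Control 2 thus held Xist with few Y-linked counts, and controls 1 and 3 the reverse. The labels give no sex, and these genes were chosen after their values were seen.

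Mitochondrial messages were high beside nuclear ones, on the coding TPM scale. Cytochrome oxidase subunit gene mt-Co3 was at 21417, 14985 and 14369 coding TPM and mt-Co1 at 21223, 14235 and 13516. Both were higher in control 1, where mitochondrial ribosomal RNA was lowest.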
